A study of Mus musculus with 12 samples.

Results

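The genes that remodel, deacetylate, methylate and read chromatin were followed in thymocytes on oligonucleotide arrays. Members were all probe sets, other than the Affymetrix controls, whose only annotated gene symbol began with Smarc, Hdac, Sirt, Cbx, Ezh, Dnmt3 or Arid, or with Chd or Brd followed by a digit. This rule took 139 of 36701 probe sets, for 61 genes. It uses names only, so it leaves out partners of the same complexes. The study compared total thymocytes of adult AND-TCR–transgenic mice of the H-2b background with total thymocytes of adult C57BL/6 mice. The AND TCR is a rearranged receptor that recognizes MHC class II, and thymocytes that carry it are positively selected in H-2b mice toward the CD4 lineage. C57BL/6 mice, also H-2b, are wild type and hold a diverse TCR repertoire. Each group had 2 hybridizations on every Affymetrix array type, namely U74Av2, U74Bv2 and U74Cv2, which makes 12 arrays. The methods describe the 2 hybridizations of a group as independent experiments, without saying whether separate mice were used or how many gave RNA, so p-values measure only the spread between hybridizations, which may be technical.

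DNA in the nucleus is wrapped around histones, and access to it is set by enzymes that slide or evict nucleosomes, by enzymes that add or remove small groups on histones and DNA, and by proteins that bind those groups. The Smarc genes encode subunits of SWI/SNF (BAF) and related ATP-dependent remodelers, and the Chd genes encode remodelers with chromodomains. Hdac and Sirt proteins are lysine deacetylases, Ezh proteins methylate lysine 27 of histone H3, Dnmt3 proteins methylate DNA, and Cbx and Brd proteins read methylated and acetylated lysines. In thymocytes, BAF and Chd4 are known for their part in CD4 and CD8 expression, and Hdac7 for repression that is relieved by TCR signals.

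Values are linear array intensities. The detection limit, taken from the negative values, was 420.8 on U74Av2, 869.4 on U74Bv2 and 1579 on U74Cv2, and anything lower was raised to it ahead of log2 conversion. Probe sets entered the test if the 2 arrays of either group exceeded that limit. Positive log2 fold changes mean higher in AND-TCR–transgenic thymocytes. The labelled cell type was borne out by its markers, since all 9 thymocyte markers on the arrays were tested, among them Cd3e and Thy1, of which Cd8a and Cd8b1 were lower at an adjusted p under 0.05 in limma and none was higher. Markers of thymocyte stages differed between the groups. Of 9 tested markers of double-positive thymocytes, 7 were lower in limma at an adjusted p under 0.05, with summed intensities of 75328 and 80644 on AND-TCR–transgenic against 208708 and 199745 on C57BL/6 arrays. Of 6 tested markers of mature single-positive thymocytes, 3 were higher, with sums of 58638 and 50902 on AND-TCR–transgenic against 20195 and 17645 on C57BL/6 arrays. Il7r alone on this list ran the other way, at 1425 and 1426 on AND-TCR–transgenic against 2176 and 1729 on C57BL/6 arrays. The sums add all tested probe sets of a list, with values under the limit left as they were and negative values taken as 0. In them, 1 probe set of Ms4a4b gave 31523 and 26949 on AND-TCR–transgenic against 9557 and 8837 on C57BL/6 arrays. None of 19 tested markers of cycling cells passed and 9 were lower at an unadjusted p under 0.05, with sums of 81357 and 87584 on AND-TCR–transgenic against 107670 and 107703 on C57BL/6 arrays. In bulk RNA, fewer cells of a type and less RNA per cell cannot be told apart. Among other cells, B-cell markers summed to 1665 and 1244 in AND-TCR–transgenic and to 2626 and 2695 in C57BL/6 samples (3 of 4 markers tested), and the 1 tested erythroid marker, Hba-a1, read 6639 and 4378 on AND-TCR–transgenic against 9710 and 11407 on C57BL/6 arrays. Markers of macrophages and dendritic cells (5 of 8 tested) summed to 3977 and 3871 on AND-TCR–transgenic against 3008 and 4111 on C57BL/6 arrays, and 5 of 6 markers of thymic epithelium were not tested. The part of these cells in the results below was not tested. Xist was above the limit on neither AND-TCR–transgenic and on both C57BL/6 arrays of U74Av2, the Y-linked genes Eif2s3y (U74Av2) and Kdm5d (U74Bv2) the other way round, and all arrays of a group were washed on a fluidics module of their own, which cannot be told apart from the group.

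None of the tested chromatin regulators passed the test. Of the 139 probe sets 83 were tested, for 50 of the 61 genes, and limma called 0 of them higher and 0 lower (adjusted p under 0.05), where among all 12844 tested probe sets 0.483% were called higher and 0.568% lower, 1.05% in all. At an unadjusted p under 0.05, 4 were higher (Chd7 at 2 probe sets, Arid5b and Ezh1) and 5 were lower (Cbx5 at 2 probe sets, Smarca4, Chd1 and Arid2). That is 10.8% of the members, against 14.0% of all tested probe sets, of which 7.47% were higher and 6.51% lower. Among the 4 higher, the sign of Chd7 on U74Av2 was set by the filter, as no C57BL/6 array was above the limit there. Chd7 on U74Bv2 and Arid5b also passed the filter only through the AND-TCR–transgenic arrays, with 1 C57BL/6 array under the limit at each. The lowest adjusted p among the members was 0.0693, for Chd7. The median log2 fold change was -0.087 over the members and 0.018 over all tested probe sets, and the median size without sign was 0.28 against 0.26. A log2 fold change of 1 or more in size was seen at 4 members, for Chd7, Arid5b, Ezh1 and Arid2. The groups did not overlap for 16 members that were higher and 27 that were lower, or 19.3% and 32.5% of those tested, against 23.0% and 21.4% of all tested probe sets (44.4% in either direction). The sign at 2 of the 16, both of Chd7, was set by the filter, as both C57BL/6 arrays were under the limit. By family, the median log2 fold change was 0.052 for Smarc, 0.073 for Arid, 0.14 for Chd, -0.13 for Hdac, -0.068 for Sirt, -0.43 for Cbx, 0.15 for Ezh, -0.087 for Dnmt3 and -0.28 for Brd. With 2 arrays per group the precision was limited. The 95% interval of a member's log2 fold change reached a median of 0.66 to either side, and it lay wholly within 2-fold in either direction for 48 of the 83 members.

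**Figure D1:**
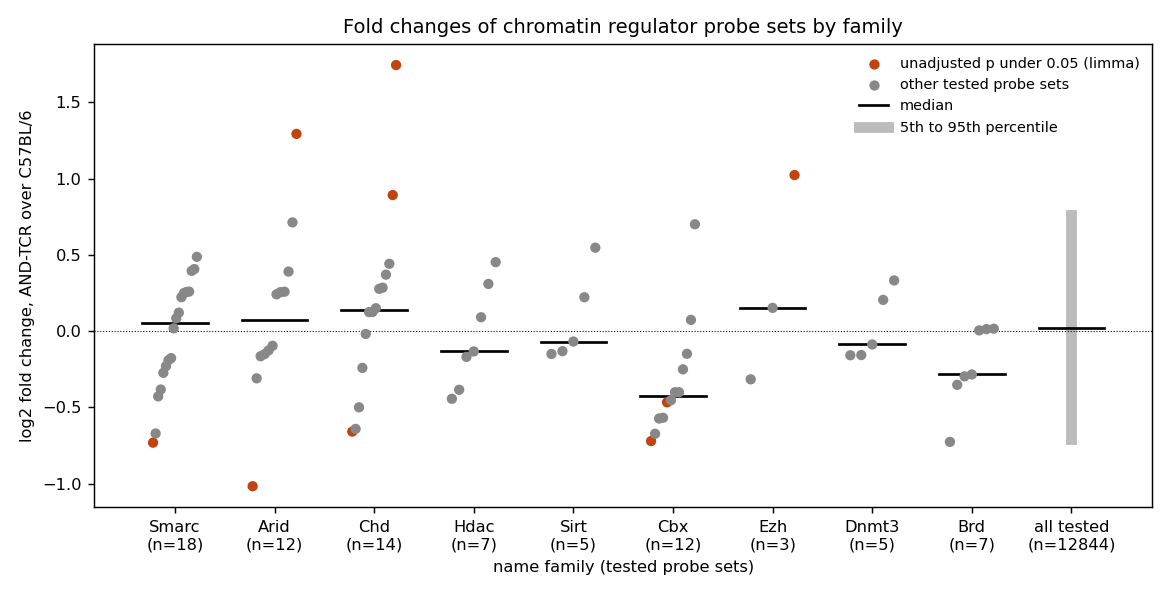
Log2 fold change between AND-TCR–transgenic and C57BL/6 thymocytes (y axis, positive where AND-TCR–transgenic is higher) for the 83 tested probe sets of chromatin regulators, by name family (x axis), 1 point per probe set and a bar at each median, with the median and the 5th to 95th percentile (-0.70 to 0.76) of all 12844 tested probe sets at the right. Most members lie within that range, Chd7 at 1.74 and 0.89, Arid5b at 1.29 and Ezh1 at 1.02 lie above it, Arid2 at -1.02, Smarca4 and Brd7 at -0.73 and Cbx5 at -0.72 lie below it, and the Cbx family has the lowest median, -0.43. The 0.89 of Chd7 is a bound whose sign the filter set. The 1.74 of Chd7, the 1.29 of Arid5b and the -0.73 of Brd7 are also bounds, with 1 array set to the limit.

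Among genes that were measured on all 4 arrays of their type and had an unadjusted p under 0.05, Ezh1, Smarca4 and Cbx5 were listed in the RefSeq promoter table of GRCm38.p6, which held 50 of the 61 member genes. Their 150 bases before the listed start are shown to give the regulatory sequence beside differences that were measured on every array, 5′ to 3′ on the gene's strand. Ezh1 is at chr11:101226464-101226613 on the minus strand, Smarca4 at chr9:21616019-21616168 on the plus strand, and Cbx5, which has a further listed start downstream, at chr15:103239853-103240002 on the minus strand. Capitals mark matches, on either strand, to the GC box GGGCGG, the CCAAT box CCAAT, the ETS core CCGGAAG, the E2F core GCGGGAA and the E box CAGGTG, none of which overlapped another here.
Ezh1: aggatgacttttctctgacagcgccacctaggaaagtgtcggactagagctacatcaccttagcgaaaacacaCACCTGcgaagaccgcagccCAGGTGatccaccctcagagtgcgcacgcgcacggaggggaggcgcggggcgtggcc
Smarca4: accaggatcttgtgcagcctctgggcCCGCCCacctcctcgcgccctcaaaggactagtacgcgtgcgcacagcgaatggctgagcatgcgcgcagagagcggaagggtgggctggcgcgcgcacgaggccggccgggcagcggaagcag
Cbx5: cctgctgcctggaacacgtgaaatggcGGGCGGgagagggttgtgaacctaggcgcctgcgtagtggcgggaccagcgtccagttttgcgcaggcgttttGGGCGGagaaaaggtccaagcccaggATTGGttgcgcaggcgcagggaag
The Ezh1 window held 2 E boxes and no GC box, that of Smarca4 held 1 GC box, and that of Cbx5 held 2 GC boxes and 1 CCAAT box. The GC box was found in 59.4% of the 69 windows of member genes, in 38.0% of 21263 windows of protein-coding genes and in 28.6% of all 32851 windows. The E box was found in 11.6%, 10.3% and 10.6% of the same sets, the CCAAT box in 18.8%, 26.4% and 24.5%, the ETS core in 10.1%, 7.3% and 5.52%, and the E2F core in 5.8%, 3.39% and 2.59%. The median GC content of the windows was 65.3% for member genes and 58.0% for protein-coding genes, and these matches are a description of letters, not of binding.

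Chd7, a chromodomain remodeler that acts at enhancers and is mutated in CHARGE syndrome in humans, was the member with the largest difference, on U74Bv2. On U74Bv2 it gave 3185 and 3432 in AND-TCR–transgenic thymocytes, while in C57BL/6 thymocytes it was under the limit on the first array and read 1120 on the second. Its log2 fold change of 1.74 (standard error 0.29, n = 2 per group, adjusted p = 0.0693 from limma) is thus at least 3.35-fold, with 1 of 2 C57BL/6 arrays measured. On U74Av2 it gave 664 and 919 on AND-TCR–transgenic arrays and was under the limit on both C57BL/6 arrays, so that it was at least 1.86-fold higher (adjusted p = 0.225 from limma). On U74Cv2 it gave 2375 and 1754 on AND-TCR–transgenic arrays, was again under the limit on both C57BL/6 arrays, and was at least 1.29-fold higher (adjusted p = 0.477 from limma). On U74Av2 and U74Cv2 these probe sets entered the test only through the AND-TCR–transgenic arrays, so that their sign and the lack of overlap were set by the filter and add nothing to the U74Bv2 value. The U74Bv2 probe set also entered only through those arrays, so that its sign in the first experiment was set by the filter. In the second experiment both of its arrays were above the limit. A further U74Cv2 probe set, with 2081 on 1 AND-TCR–transgenic array and values under the limit on the other 3, was not tested. The array types were hybridized with RNA of the same 2 groups and are not further replicates of them.

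**Figure D2:**
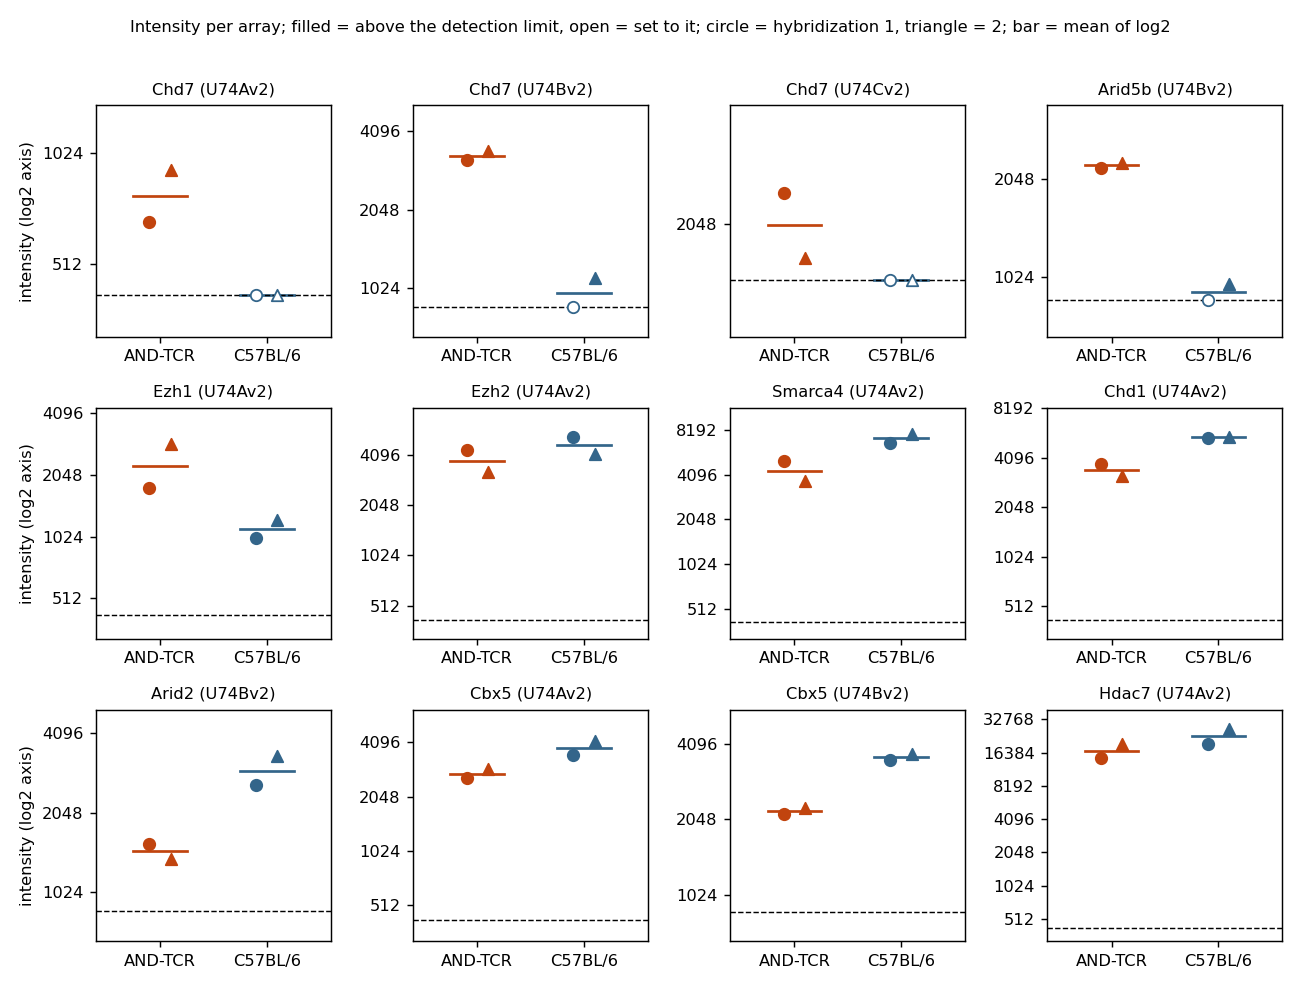
Intensity (y axis, log2 axis) on each array for 12 probe sets of chromatin regulators, with AND-TCR–transgenic arrays at the left and C57BL/6 arrays at the right of each panel, hybridization 1 as circles, hybridization 2 as triangles, open symbols for values set to the detection limit (dashed) and bars at the mean of the log2 values. Chd7 and Arid5b sit at or near the limit in C57BL/6 thymocytes on every panel, while Smarca4, Chd1, Arid2 and Cbx5 are lower on both AND-TCR–transgenic arrays than on both C57BL/6 arrays.

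The other Chd genes had smaller values, of both signs. Chd1, which binds histone H3 methylated at lysine 4 and assembles nucleosomes at transcribed genes, gave 3760 and 3182 in AND-TCR–transgenic against 5419 and 5498 in C57BL/6 thymocytes on U74Av2 (log2 fold change -0.66 with a standard error of 0.17, limma adjusted p = 0.146). The groups did not overlap there, nor at 1 of its 2 tested U74Cv2 probe sets, with 2890 and 3155 on AND-TCR–transgenic against 4595 and 3963 on C57BL/6 arrays (log2 fold change -0.50, adjusted p = 0.608 from limma). The other U74Cv2 probe set of Chd1 overlapped, at a log2 fold change of -0.018. Chd4, the ATPase of the NuRD complex, gave 4720 and 5147 on AND-TCR–transgenic against 4411 and 3748 on C57BL/6 arrays at 1 U74Bv2 probe set (log2 fold change 0.28, 95% interval -0.12 to 0.67). Its U74Av2 probe set, of a type that can bind related transcripts, had 0.13. At its other U74Bv2 probe set it read 6395 on the first and 1534 on the second AND-TCR–transgenic array, against 5011 and 4757 on C57BL/6 arrays, so the value there (-0.64, standard error 0.63) rested on 1 array. Chd8, which represses targets of beta-catenin, gave 2000 and 2053 on AND-TCR–transgenic against 1424 and 1563 on C57BL/6 arrays of type U74Bv2 (log2 fold change 0.44, adjusted p = 0.555 from limma) and 0.15 on U74Av2, where the groups overlapped. Chd1l, Chd2 and Chd5 had log2 fold changes from -0.24 to 0.29 and overlapped between the groups.

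Among SWI/SNF genes, Smarca4 (BRG1), the ATPase that drives BAF, was lower in AND-TCR–transgenic thymocytes by value at each of its 3 tested probe sets, and its untested one was under the limit on all arrays. On U74Av2 it gave 5027 and 3714 in AND-TCR–transgenic against 6670 and 7705 in C57BL/6 thymocytes (log2 fold change -0.73 with a standard error of 0.19, 95% interval -1.18 to -0.28, limma adjusted p = 0.154). With the day of hybridization as a block, the adjusted p was 0.0479, and this was the 1 member that limma then called. With the numbers crossed between the groups the adjusted p was 0.0254 in limma. That crossed block joins arrays of different days and was chosen after the data were seen. It matches no factor of the design and is no further support. On U74Cv2 it gave 2568 on the second AND-TCR–transgenic array and was under the limit on the first, against 3002 and 3421 on C57BL/6 arrays (log2 fold change -0.67, adjusted p = 0.489 from limma). The groups overlapped at its other U74Cv2 probe set, which can bind related transcripts, with 16970 and 14187 on AND-TCR–transgenic against 15625 and 20051 on C57BL/6 arrays (log2 fold change -0.19). Smarca2 (BRM), the alternative ATPase, gave 824 and 676 on AND-TCR–transgenic arrays, against 753 on the first C57BL/6 array and a value under the limit on the second (log2 fold change 0.41, 95% interval -0.44 to 1.25).

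The subunits that hold the complex together showed smaller and mixed values. The core subunit Smarcb1 (SNF5) gave 2527 and 1475 on AND-TCR–transgenic against 1832 and 1176 on C57BL/6 arrays (log2 fold change 0.40, standard error 0.37). Smarcc1 (BAF155), a scaffold, had log2 fold changes of 0.22 on U74Av2 and -0.38 on U74Bv2. Smarce1 (BAF57), which carries an HMG domain and is known for silencing CD4 and activating CD8 in thymocytes, gave 576 and 560 on AND-TCR–transgenic against 587 and 802 on C57BL/6 arrays (log2 fold change -0.27, adjusted p = 0.741 from limma). Smarcc2 (BAF170), a scaffold like Smarcc1, gave 3451 and 5053 on AND-TCR–transgenic against 5643 and 5588 on C57BL/6 arrays and did not overlap (log2 fold change -0.43, adjusted p = 0.448 from limma). The remaining Smarc probe sets that were tested, for Smarcd1, Smarcd2, the ISWI ATPase Smarca5, Smarcad1 and the annealing helicase Smarcal1, ran from -0.23 to 0.49. In all, 10 Smarc probe sets had positive and 8 had negative values, and the groups did not overlap for 2 higher and 5 lower ones, or 11.1% and 27.8%, against 23.0% and 21.4% of all tested probe sets.

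Arid proteins share an AT-rich interaction domain, and several are BAF subunits. Arid2, which defines the PBAF form, had no overlap between the groups at any of its 3 probe sets. It gave 1555 and 1370 in AND-TCR–transgenic against 2598 and 3354 in C57BL/6 thymocytes at 1 U74Bv2 probe set (log2 fold change -1.02 with a standard error of 0.28, limma adjusted p = 0.203). At the other probe sets the difference was small, with 14397 and 13544 on AND-TCR–transgenic against 15592 and 14894 on C57BL/6 arrays of type U74Bv2 (log2 fold change -0.13) and 3477 and 3071 on AND-TCR–transgenic against 3654 and 4484 on C57BL/6 arrays of type U74Av2 (log2 fold change -0.31). Arid1a, the BAF subunit that is alternative to Arid1b, gave 4456 and 4964 on AND-TCR–transgenic against 3825 and 3364 on C57BL/6 arrays at 1 probe set (log2 fold change 0.39 with a standard error of 0.17, limma adjusted p = 0.375). At its other tested probe set it gave 14719 and 21569 on AND-TCR–transgenic against 15204 and 14933 on C57BL/6 arrays and overlapped (log2 fold change 0.24), and Arid1b had -0.16.

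Of the Arid genes outside BAF, Arid5b, a partner of the histone demethylase Phf2, was read higher. It gave 2210 and 2293 in AND-TCR–transgenic thymocytes, against a value under the limit and 971 in C57BL/6 thymocytes, which is at least 2.45-fold (log2 fold change 1.29 with a standard error of 0.25, limma adjusted p = 0.105). This probe set entered the test only through the AND-TCR–transgenic arrays, so that its sign in the first experiment was set by the filter. The other Arid5b probe set was under the limit on all arrays and was not tested. Arid5a, known for binding and stabilizing cytokine mRNA, gave 3276 and 2641 on AND-TCR–transgenic against 2303 and 1398 on C57BL/6 arrays, with no overlap (log2 fold change 0.71 with a standard error of 0.33, limma adjusted p = 0.424). Arid3b and the 3 tested probe sets of Arid4b, a part of Sin3 deacetylase complexes, ran from -0.15 to 0.26.

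Polycomb repressive complex 2 writes methyl groups on lysine 27 of histone H3 through Ezh2 or Ezh1. Ezh1, typical of resting cells, gave 1767 and 2916 in AND-TCR–transgenic against 1012 and 1232 in C57BL/6 thymocytes, 2.03-fold higher without overlap (log2 fold change 1.02 with a standard error of 0.33, 95% interval 0.23 to 1.81, limma adjusted p = 0.242). Ezh2, typical of dividing cells, gave 4390 and 3219 on AND-TCR–transgenic against 5252 and 4168 on C57BL/6 arrays and overlapped (log2 fold change -0.32, 95% interval -0.82 to 0.19, adjusted p = 0.585 from limma). The difference between the 2 was not tested. The sums of the cycling markers, lower in AND-TCR–transgenic thymocytes, are given above beside those of the stages, and a link to Ezh1 or Ezh2 was not tested. Ezhip, an inhibitor of the complex, read 797 (under the limit) and 2178 on AND-TCR–transgenic arrays against 1696 and 904 on C57BL/6 arrays, so that its experiments ran in opposite directions.

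The Cbx proteins bind methylated histone H3 in Polycomb complex 1 (Cbx2, Cbx6 and Cbx7) or in heterochromatin (Cbx1, Cbx3 and Cbx5, the HP1 proteins). Of 12 tested Cbx probe sets, 10 had negative values, and the groups did not overlap for 9 lower and 1 higher, or 75.0% and 8.33%, against 21.4% and 23.0% of all tested probe sets. These probe sets came from 4 genes, so they are not independent, and 0 passed in limma, with 2 lower at an unadjusted p under 0.05. Cbx5 (HP1 alpha) gave 2141 and 2278 on AND-TCR–transgenic against 3537 and 3743 on C57BL/6 arrays of type U74Bv2 (log2 fold change -0.72 with a standard error of 0.20, limma adjusted p = 0.203). It gave 2579 and 2916 on AND-TCR–transgenic against 3467 and 4138 on C57BL/6 arrays of type U74Av2 (log2 fold change -0.47 with a standard error of 0.19, limma adjusted p = 0.348). A further U74Av2 probe set had 1380 and 945 on AND-TCR–transgenic against 1442 and 1575 on C57BL/6 arrays (log2 fold change -0.40). Its 2 U74Cv2 probe sets overlapped, at -0.15 and 0.074. The first of these can bind related transcripts, and the second had 1 AND-TCR–transgenic array under the limit.

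Cbx6 was lower on both AND-TCR–transgenic arrays than on both C57BL/6 arrays at each of its 4 probe sets. Their log2 fold changes were -0.25 and -0.40 on U74Av2 and -0.67 and -0.45 on U74Bv2, with adjusted p-values from 0.411 to 0.623 in limma. At the U74Bv2 probe set with the largest difference Cbx6 gave 1549 and 2435 on AND-TCR–transgenic against 2637 and 3633 on C57BL/6 arrays. Cbx1 (HP1 beta) gave 747 and 1260 on AND-TCR–transgenic against 1637 and 1263 on C57BL/6 arrays, so that the groups differed by little in the second hybridizations (log2 fold change -0.57, standard error 0.38). The 2 probe sets of Cbx2 differed in sign, with 1231 and 1231 on AND-TCR–transgenic against 617 and 930 on C57BL/6 arrays at 1 (log2 fold change 0.70) and 478 and 602 on AND-TCR–transgenic against 952 and 668 on C57BL/6 arrays at the other (log2 fold change -0.57). Cbx3 (HP1 gamma) and Cbx7 had no array above the limit.

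Of the deacetylases, Hdac7, a class IIa enzyme that is abundant in double-positive thymocytes and leaves the nucleus on TCR signals, gave 14543 and 19496 in AND-TCR–transgenic against 19668 and 26647 in C57BL/6 thymocytes. Its log2 fold change was -0.44 (standard error 0.20, 95% interval -0.92 to 0.038, adjusted p = 0.4 from limma), and it was -0.44 in the first and -0.45 in the second experiment. Hdac5, of the same class, gave 2410 and 2615 on AND-TCR–transgenic against 1764 and 1908 on C57BL/6 arrays, with no overlap (log2 fold change 0.45 with a standard error of 0.22, limma adjusted p = 0.432). Hdac4 had 0.091 and -0.38 at its 2 tested probe sets, and of its 3 untested ones 2 were above the limit on 1 AND-TCR–transgenic array and on no C57BL/6 array. The class I enzymes Hdac1 and Hdac2, catalytic subunits of the NuRD, Sin3 and CoREST complexes, overlapped between the groups. Hdac1 gave 3087 and 2549 on AND-TCR–transgenic against 2799 and 3378 on C57BL/6 arrays (log2 fold change -0.13, 95% interval -0.63 to 0.36), and Hdac2 gave 3189 and 2219 on AND-TCR–transgenic against 3375 and 2648 on C57BL/6 arrays (log2 fold change -0.17, 95% interval -0.76 to 0.42). Hdac3, the NCoR deacetylase, was above the limit on 1 of 4 arrays and was not tested. Hdac6, a tubulin deacetylase encoded on the X chromosome, had a log2 fold change of 0.31.

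The sirtuins are deacylases that use NAD. Sirt1, the nuclear member, gave 2095 and 2099 on AND-TCR–transgenic against 2310 and 2340 on C57BL/6 arrays at 1 probe set and 2480 and 2121 on AND-TCR–transgenic against 2337 and 2698 on C57BL/6 arrays at the other, at log2 fold changes of -0.15 and -0.13 and 95% intervals of -0.75 to 0.45 and -0.74 to 0.48. Sirt5, a mitochondrial desuccinylase, gave 3194 and 3517 on AND-TCR–transgenic against 2798 and 1880 on C57BL/6 arrays, with no overlap (log2 fold change 0.55 with a standard error of 0.27, limma adjusted p = 0.441). Sirt2 and the nucleolar Sirt7 overlapped, at 0.22 and -0.068. For Sirt7 the first experiment had 0.43 and the second -0.57.

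The DNA methyltransferases Dnmt3a and Dnmt3b set methylation on sites without it. Dnmt3a had log2 fold changes of 0.21, 0.33 and -0.087 on U74Av2, U74Bv2 and U74Cv2, and the groups overlapped at all 3 tested probe sets. Dnmt3b gave 1522 and 1734 on AND-TCR–transgenic against 1783 and 1842 on C57BL/6 arrays (log2 fold change -0.16, 95% interval -0.84 to 0.53), and Dnmt3l, a cofactor without catalytic activity, had -0.16. Of the bromodomain genes, the BET proteins Brd2 and Brd3 had log2 fold changes of 0.016 (95% interval -0.53 to 0.56) and 0.0053 (95% interval -0.37 to 0.38). Brd3 gave 29361 and 26194 on AND-TCR–transgenic against 26509 and 28800 on C57BL/6 arrays, at a probe set that can bind related transcripts. Its other probe sets, not of that type, were under the limit on all arrays, so these intensities may not be those of Brd3. Brd7, a PBAF subunit, gave 2397 and 2499 on AND-TCR–transgenic against 3220 and 3028 on C57BL/6 arrays, with no overlap (log2 fold change -0.35, adjusted p = 0.48 from limma), and had -0.73 at a second probe set with 1 AND-TCR–transgenic array under the limit. Brd1, a scaffold of acetyltransferase complexes, had -0.28 at a probe set that can bind related transcripts. Its other probe set was above the limit on 1 array and was not tested. The 2 tested probe sets of Brd8 had 0.014 and -0.30.

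Probe sets of the same gene often differed. Of 20 genes with at least 2 tested probe sets, 5 had positive values only, 6 had negative values only and 9 had both signs. Chd7, Smarcal1, Arid1a, Chd8 and Smarca5 were positive throughout, and Arid2, Cbx6, Chd1, Brd7, Smarca4 and Sirt1 were negative throughout. The other 30 tested genes had 1 tested probe set each. Of the 11 genes without a tested probe set, 8 had no array value above the limit, namely Arid3a, Arid4a, Cbx3, Cbx7, Hdac9, Hdac11, Smarca1 and Smarcd3, and Brd9, Hdac3 and Sirt3 had 1 or 2 such values. Of the 83 tested members, 71 were above the limit on all 4 arrays. The other 12 had at least 1 array of a group under the limit and were tested only through the other group. Among these were Chd7 and Arid5b on U74Bv2 and 1 probe set each of Smarca4 and Brd7. Where both arrays of a group were under the limit, the sign of the difference was also set by the filter.

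**Figure D3:**
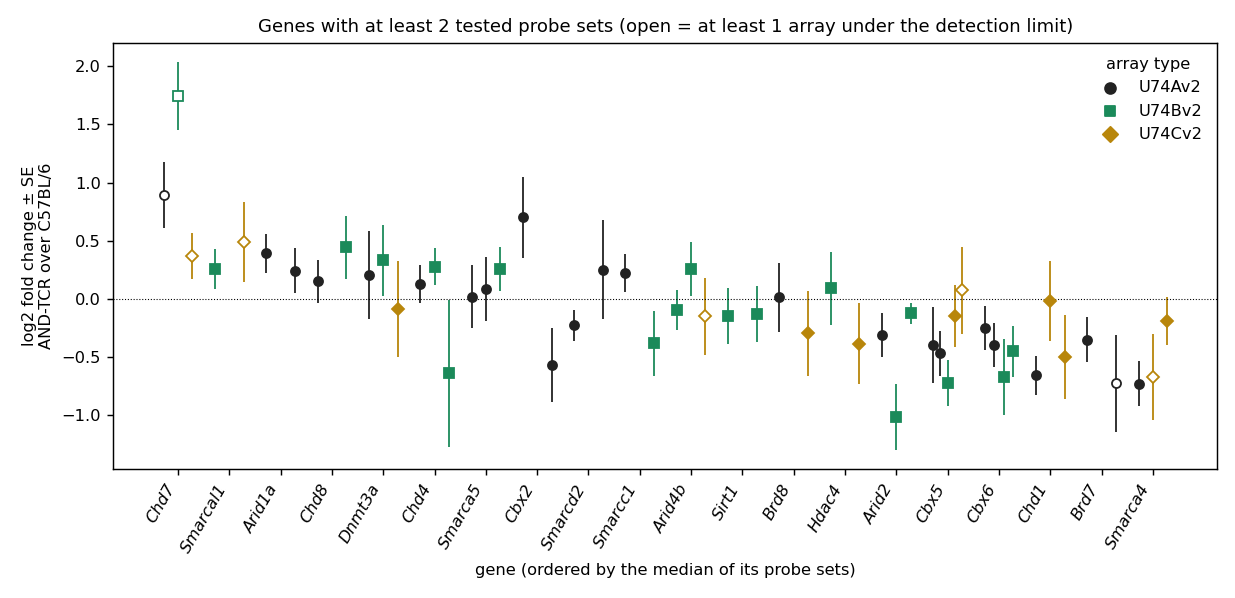
Log2 fold change with its standard error (y axis, AND-TCR–transgenic relative to C57BL/6, n = 2 arrays per group) for each probe set of the 20 genes with at least 2 tested probe sets (x axis), by array type, with open symbols where at least 1 array was under the detection limit. Chd7 on U74Bv2 is the highest, at 1.74, its other values being bounds whose sign the filter set, and Smarca4 and Cbx6 have negative values only, whereas the probe sets of Cbx2 lie at 0.70 and -0.57.

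The experiments were alike for part of the members. Both ratios had the same sign for 22 higher and 33 lower members, together 66.3% of those tested, against 57.7% of all tested probe sets (30.2% higher and 27.6% lower), and the other 28 differed in sign or had no difference in 1 experiment. For 2 of the 22, Chd7 on U74Av2 and U74Cv2, both signs were set by the filter, as they were for 754 of all tested probe sets. The median log2 ratio over the members was -0.047 in the first and -0.14 in the second experiment, against -0.0063 and 0.041 over all tested probe sets. Chd7 on U74Bv2 had a log2 ratio of at least 1.87 in the first and of 1.62 in the second experiment, Arid5b of at least 1.35 and of 1.24, and Ezh1 of 0.80 and 1.24. Smarca4 on U74Av2 had -0.41 and -1.05, Chd1 had -0.53 and -0.79, and Cbx5 on U74Bv2 had -0.72 in both. As arrays of the same number were run on the same day, these are also the values within each day.

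**Figure D4:**
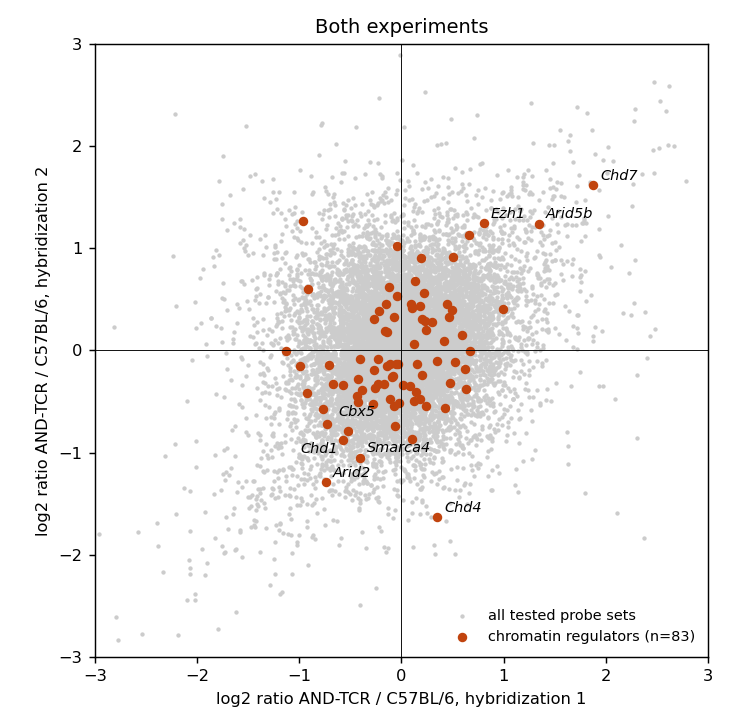
Log2 ratio of AND-TCR–transgenic over C57BL/6 intensity in the first (x axis) and second (y axis) hybridizations, for the 83 tested chromatin regulators over all 12844 tested probe sets, of which 16 fall outside the axes. Chd7, Arid5b and Ezh1 lie at the upper right, and Arid2, Smarca4, Chd1 and Cbx5 at the lower left, while the labelled Chd4 probe set had opposite signs.

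Partners of these proteins under other names were counted from 7 lists, each gene at its tested probe set with the highest mean. Of 92 tested genes, limma called 0 in either direction after adjustment, 5 were higher and 5 lower at an unadjusted p under 0.05, where 1.05% of all tested probe sets were called and 14.0% had such a p, and the median log2 fold change was 0.013. Yaf2, a Polycomb partner among the 5 higher, was above the limit on no C57BL/6 array, so that its sign was set by the filter. Bcl11b, a BAF partner among the 5 lower, had a log2 fold change of -0.26 at the probe set counted. At its 2 other tested probe sets it had 0.51 and 0.52, at unadjusted p-values of 0.039 and 0.049 in limma. The latter had 1 C57BL/6 array under the limit. Lists of BAF partners, acetyltransferases, histone methyltransferases, DNA methylation and ISWI and INO80 partners had medians from -0.11 to 0.12. Among the 16 tested Polycomb partners (median 0.077), Eed and Suz12, the core subunits beside Ezh2, had log2 fold changes of 0.11 and -0.029. Jarid2, which recruits the complex, had 0.54 on U74Av2 and 0.46 on U74Bv2. On U74Cv2, at a probe set that can bind related transcripts, Jarid2 gave 32638 and 30596 on AND-TCR–transgenic against 22608 and 21636 on C57BL/6 arrays (log2 fold change 0.51 with a standard error of 0.15, limma adjusted p = 0.203). Among the 16 tested deacetylase partners (median 0.043), Rbbp4, a histone-binding subunit of NuRD, Sin3 and Polycomb complexes, gave 3039 and 2031 on AND-TCR–transgenic against 6142 and 5079 on C57BL/6 arrays (log2 fold change -1.17 with a standard error of 0.24, limma adjusted p = 0.0802). Brms1, a Sin3 subunit, gave 9647 and 8260 on AND-TCR–transgenic against 5677 and 4827 on C57BL/6 arrays (log2 fold change 0.77 with a standard error of 0.15, limma adjusted p = 0.0986) on U74Bv2, while a U74Cv2 probe set of it had -0.44. Dnmt1, which maintains methylation at replication, had -0.11, and its cofactor Uhrf1 gave 3291 and 5075 on AND-TCR–transgenic against 6129 and 7316 on C57BL/6 arrays (log2 fold change -0.71 with a standard error of 0.23, limma adjusted p = 0.237).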

How the data were processed

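Total thymocytes were profiled on Affymetrix U74Av2, U74Bv2 and U74Cv2 arrays. The authors deposited 1 intensity per probe set and array, made with Microarray Suite 4.0 per the submitters' processing notes, with perfect-match and mismatch probes compared, so that values can be negative. All arrays had been brought to a like overall level. The intensities were rescaled to a common mean without the outer 2% at each end, within each array type. The noise SD was taken from the size of the negative values, the detection limit was 2 noise SDs, and lower values were set to it before log2. Each array type was fitted with limma 3.58.1 in R 4.3.3 (lmFit, then eBayes, its prior variance following intensity), and p-values were adjusted by Benjamini-Hochberg over the 12844 tested probe sets of the 3 array types together. Steps were tested on simulated data. The number of arrays limits the precision. Gene names came from the platform annotation, in which 29131 probe sets had 1 symbol, 724 had several and 6846 had none, and each of the 139 members matched its RefSeq gene ID. Control probe sets were left out.

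Members and lists were chosen with earlier results of these data known. Named with values were probe sets that passed the test (0), the 8 with the largest positive and the 8 with the largest negative log2 fold change among those above the limit on all 4 arrays and of 1 direction in both experiments, the probe set with the highest mean of each family, and members with a known role in thymocytes or as a core subunit. This rule named 43 probe sets, and the others given with values were chosen after their values were seen. Alternatives changed the floor, the filter, the scaling, the variance prior, the block and the arrays used.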

Additional observations from a re-analysis of the deposited data

How the results depend on the processing

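No member passed the test under a floor at 1 noise SD, a floor and limit at 4, no filter, a filter on all 4 arrays, quantile normalization, no trend in the prior variance, or with any array left out. The median log2 fold change of the members was 0.0 with no filter and ran from -0.15 to -0.034 with 1 array left out. Over all tested probe sets, where 135 passed, limma called 270 with a floor at 1 noise SD, 62 with no filter, 256 with all 4 arrays above the limit and 10 without the trend. With 1 array left out it called 0 to 0, and 1290 to 1968 had an unadjusted p under 0.05. The causes were not tested. Deviations of arrays with the same hybridization number correlated at 0.041, -0.13 and -0.26 on U74Av2, U74Bv2 and U74Cv2, while arrays of the same number were run on the same day. With the number as a replicate block limma called 306, among them 1 member, lower (Smarca4, adjusted p = 0.0479). A crossed block, which joins arrays of different days and was chosen after seeing the data, called 455, among them 1 member higher and 1 lower. The adjusted p of Smarca4 on U74Av2 ran from 0.0254 to 0.902 over its alternatives in limma, and that of Chd7 on U74Bv2 from 0.0235 to 0.496. Cbx5 at 1 U74Cv2 probe set was -0.33 with a floor at 1 noise SD, and with quantile normalization Brd2 was -0.0050 and Brd3 was -0.079. With 1 array left out, log2 fold changes that turned sign ran from -0.43 to 0.58 for the same Cbx5 probe set, -0.38 to 0.086 for its other U74Cv2 probe set, -0.077 to 0.088 for Brd3, -0.11 to 0.14 for Brd2, -0.034 to 0.52 for the brighter Arid1a probe set, -0.27 to 0.0057 for Hdac1, -0.43 to 0.093 for Hdac2, -0.066 to 0.32 for Chd4 on U74Av2, -1.67 to 0.39 for the Chd4 probe set with 1 low array, -0.39 to 0.25 for Sirt7, -0.18 to 0.14 for the overlapping Chd1 probe set, -0.40 to 0.23 for Dnmt3a on U74Cv2, -0.20 to 0.61 for Dnmt3a on U74Av2 and -0.013 to 0.83 for Smarca2. Without a turn of sign, values ran from 0.0074 to 0.78 for Smarcb1, -0.94 to -0.19 for Cbx1, -1.02 to -0.32 for Smarca4 on U74Cv2, 0.35 to 1.07 for Arid5a, -0.999 to -0.35 for Cbx6 at its largest difference and 0.66 to 1.38 for Ezh1, among others. A lone array was assumed to vary like those of the other group. Signal over background limited 12 of the 83 tested members, which had at least 1 array under the limit, and 56 members that were not tested.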
